A study of Mus musculus with 8 samples.

Results

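The genes described here are the doublecortin family and other microtubule genes that mark young neurons: Dcx, Dclk1, Dclk2, Map1b, Map2, Mapt, Tubb3 and Stmn2. Members were taken by their symbols from the gene table that came with each sample. Of the 8 listed symbols, 7 were found among the 14166 genes of that table, and Tubb3, the neuronal beta-tubulin, was not analysed here. The samples were nuclei of mouse dorsal telencephalon, from which the cerebral cortex arises, collected at E15.5, in the period of cortical neurogenesis. One group held 4 wildtype samples and the other 4 samples labelled Pantr2-/-, called knockout here after their label, Pantr2 being a long noncoding RNA gene. Both groups carried the strain label C57BL/6J and no other allele or treatment. The labels do not say how many embryos went into a sample, whether littermates were shared, or which sexes were used, so the tests measure the spread between these samples. The submitters had assigned each nucleus to 1 of 7 clusters, and the comparisons below are those of genotype over all nuclei, of genotype within each cluster, and of levels from cluster to cluster.

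Microtubules are the tracks and struts along which a newborn cortical neuron moves its nucleus, extends a leading process and later builds an axon and dendrites. Doublecortin proteins bind between the protofilaments of the microtubule and stabilise it, and loss of human DCX disturbs neuronal migration and gives lissencephaly or a double cortex. The doublecortin-like kinases add a kinase domain to the same microtubule-binding module, MAP1B, MAP2 and tau coat microtubules in growing axons, dendrites and mature axons, and stathmin-2 binds free tubulin in growth cones.

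The 8 samples held 67319 nuclei, 33781 of them wildtype and 33538 knockout. A sample contributed between 7280 and 10921 nuclei and between 20446698 and 34083796 unique molecular identifiers (UMIs), each of which stands for 1 captured transcript. Mitochondrial genes took between 1.66% and 2.32% of a sample's UMIs, and 1023 nuclei carried a barcode sequence that also occurred in another library. Cluster 4 was apical progenitor-like, with 10 markers of that class, such as Pax6, Hes5 and Vim, at their highest level there, and it also held the highest level of 3 inhibitory or striatal markers. Cluster 5 held the highest level of 6 intermediate progenitor markers, among them Eomes and Neurog2, and of 3 markers of migrating newborn neurons. Its 10 leading genes by fold held 1 of the latter, Unc5d, and 0 of the former. It carried markers of both classes and is left unnamed here. Cluster 1 was upper-layer excitatory neuron-like (Cux1, Cux2, Pou3f1 and Plxna4), and clusters 2 (Bcl11b, Fezf2, Ldb2 and Sox5) and 3 (Tle4, Foxp2, Tbr1 and Hs3st4) were both deep-layer excitatory neuron-like. Clusters 6 and 7 stayed unnamed. The excitatory cortical markers fit the tissue label, and markers of inhibitory or striatal neurons, summed over 12 genes found, took between 1492 and 2053 CPM (UMIs scaled to a total of 1000000 per sample, or per sample and cluster), with the ranges of the 2 genotypes overlapping. Microglial, endothelial and oligodendrocyte precursor markers each summed to at most 16.7 CPM in any of the 8 samples.

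The 3 doublecortin genes lie on 2 chromosomes, and the sequence upstream of their starts is shown for Dcx and Dclk1 because Dcx led in cluster 5 and Dclk1 differed most clearly between genotypes. Each window below covers the 250 bases before an annotated start in the RefSeq annotation of GRCm38.p6, written 5′ to 3′ on the gene's strand, with every CANNTG, the core letters that basic helix-loop-helix factors bind, in capitals. The table holds 2 overlapping windows for Dcx, of which 1 is shown. It lies on the minus strand of chromosome X (chrX:143933220-143933469), and the 2 Dclk1 windows on the plus strand of chromosome 3 (chr3:55242114-55242363 and chr3:55461478-55461727).
Dcx: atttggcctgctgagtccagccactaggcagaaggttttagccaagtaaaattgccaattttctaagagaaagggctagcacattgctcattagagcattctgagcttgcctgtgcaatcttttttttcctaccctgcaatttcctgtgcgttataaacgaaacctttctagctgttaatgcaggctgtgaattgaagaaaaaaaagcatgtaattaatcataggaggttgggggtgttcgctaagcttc
Dclk1, first start: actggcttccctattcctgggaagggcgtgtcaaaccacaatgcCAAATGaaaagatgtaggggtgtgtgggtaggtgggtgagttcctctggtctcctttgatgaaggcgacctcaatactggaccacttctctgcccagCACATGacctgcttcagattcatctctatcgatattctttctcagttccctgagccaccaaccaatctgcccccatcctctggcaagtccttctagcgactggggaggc
Dclk1, second start: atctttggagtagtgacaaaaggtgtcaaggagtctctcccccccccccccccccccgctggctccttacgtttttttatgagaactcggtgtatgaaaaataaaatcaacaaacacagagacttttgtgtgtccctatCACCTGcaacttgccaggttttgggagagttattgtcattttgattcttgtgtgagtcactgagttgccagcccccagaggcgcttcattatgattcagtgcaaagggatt
The first Dclk1 window held 2 such hexamers, the second 1 and the Dcx window shown 0, as did the other (chrX:143933125-143933374), and 66.2% of the 32851 windows of the same length in the table held at least 1. CANNTG reads the same on both strands, so 1 search covers both, and a match describes letters, not a bound site. The Dclk1 windows had a GC content of 52.4% and 46.8% and the Dcx windows 41.6% and 44.8%, against a median of 52.4% over all windows. The table used here has no entry for Mapt and Stmn2.

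Dcx, the founding gene of the family, is ENSMUSG00000031285 on chromosome X (142638838 to 142716307 in the deposited gene table, whose build is not named). In wildtype it was highest in the unnamed cluster 5, at 479, 506, 512 and 535 CPM in replicates 1 to 4 (508 ± 23.2, SD, n = 4). It was lowest in the apical progenitor-like cluster 4, at 139, 133, 199 and 184 CPM (164 ± 32.8), so that each sample held 2.57 to 3.80 times as much Dcx in cluster 5 as in cluster 4. The level lay between these in the other clusters. The upper-layer-like cluster 1 came second at 411 ± 31.7 CPM, followed by cluster 6 at 382 ± 31.0, cluster 7 at 369 ± 25.3, cluster 2 at 342 ± 20.5 and the deep-layer-like cluster 3 at 314 ± 15.8 CPM. Wildtype samples did not overlap between clusters 5 and 1, or between clusters 3 and 4, and overlapped between all other neighbours in this order. Since the clusters were made from the same nuclei and genes, these and the following cluster differences are descriptions and were not tested. After every nucleus was thinned to 1400 UMIs, 49.9% ± 2.09 of cluster 5 nuclei and 19.2% ± 3.41 of cluster 4 nuclei held a Dcx UMI (68.0% and 34.9% before thinning). Tnc, an apical progenitor gene, was at 156 CPM in wildtype cluster 4 and between 3.76 and 7.90 CPM on average in the other clusters. Some markers of that class were less confined to cluster 4. Over all 8 samples Fabp7 was at 604 CPM there, against a median of 385 CPM over the other clusters, and Vim at 332 against 153 CPM. Notch1 resembled Tnc, at 63.5 against 1.96 CPM. The red blood cell gene Hbb-bs lay between 229.9 and 306 CPM in every wildtype cluster. How much of the Dcx level is RNA shared between nuclei was not tested.

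Dclk1, which joins doublecortin domains to a kinase domain, is ENSMUSG00000027797 on chromosome 3 (55149785 to 55446489). Its order was different from that of Dcx. Clusters 4 and 5 were both low in wildtype, with 283, 285, 321 and 329 CPM in cluster 4 and 330.0, 329, 386 and 342 CPM in cluster 5, a mean ratio of 1.14 ± 0.07 within samples. The upper-layer-like cluster 1 was intermediate at 698 ± 14.5 CPM and did not overlap with its neighbours in the order. Cluster 6 (947 ± 32.3 CPM), cluster 2 (925 ± 33.7), cluster 3 (891 ± 16.7) and cluster 7 (844 ± 30.7) formed an upper group whose neighbours overlapped. In the thinned nuclei 29.9% ± 1.38 of cluster 4 and 70.7% ± 0.61 of cluster 3 held a Dclk1 UMI (48.6% and 91.8% before thinning). Dclk2, the third doublecortin gene (ENSMUSG00000028078, chromosome 3, 86693458 to 86828159), was nearly level across the clusters, from 399.5 ± 18.1 CPM in cluster 5 to 479 ± 39.1 CPM in cluster 7, with cluster 4 at 452 ± 40.8 CPM. Its ratio to cluster 4 averaged between 0.886 and 1.06 in the other 6 wildtype clusters, against 1.14 to 3.12 for Dclk1 and 1.96 to 3.19 for Dcx.

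In wildtype, the genes Mapt, Map1b and Stmn2 were, like Dclk1, lowest in clusters 4 and 5, followed by cluster 1. Mapt, which encodes tau (ENSMUSG00000018411, chromosome 11, 104122216 to 104222916), had the widest range of the 7 genes relative to cluster 4. Its wildtype level was 209 ± 27.5 CPM in cluster 4, 265 ± 27.0 CPM in cluster 5, 499.8 ± 22.4 in cluster 1 and 769 ± 24.0 in cluster 3, and it was highest in cluster 7 at 886 ± 61.4 CPM, 4.26 ± 0.31 times cluster 4. Clusters 4, 5, 1 and 3 did not overlap with each other in wildtype, while clusters 2, 3, 6 and 7 overlapped between neighbours. Map1b, which encodes a microtubule-associated protein of extending axons (ENSMUSG00000052727, chromosome 13, 99557954 to 99653048), lay at 1093 ± 57.5 CPM in cluster 4 and 1074 ± 92.0 CPM in cluster 5, whose samples overlapped, and between 1481 ± 97.0 CPM (cluster 1) and 1807 ± 70.4 CPM (cluster 7) in the other clusters. Already 76.3% of thinned cluster 4 nuclei held a Map1b UMI. Stmn2 (ENSMUSG00000027500, chromosome 3, 8574420 to 8626666) stood at 256 ± 25.9 CPM in cluster 4 and, overlapping with it, at 317 ± 25.3 CPM in cluster 5, at 443 ± 29.8 CPM in the upper-layer-like nuclei, with clusters 2, 3, 6 and 7 between 514 and 572 CPM.

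Map2, the dendritic member (ENSMUSG00000015222, chromosome 1, 66214432 to 66481742), lay clearly higher in cluster 5 than in cluster 4, as Dcx did. Unlike Dcx, it did not peak in cluster 5, and wildtype clusters 1, 2, 3 and 6 held more on average. Wildtype cluster 4 held 525, 512, 538 and 537 CPM, and cluster 5 held 935, 962, 949 and 934 CPM, 1.79 ± 0.06 times as much. The highest Map2 levels were in the deep-layer-like clusters 2 (1089 ± 25.0 CPM) and 3 (1042 ± 16.3 CPM), which overlapped, and the lowest after cluster 4 was cluster 7 at 855 ± 52.2 CPM. Across the 28 wildtype values (4 samples in 7 clusters, on the log2(CPM + 1) scale) Dclk1, Map1b, Mapt and Stmn2 tracked each other with Pearson r between 0.935 and 0.981, the highest being Dclk1 with Mapt. Dcx had its highest r among the members with Map2 (0.785) and 0.348 with Dclk1, and Dclk2 had r between -0.336 and 0.309 with the other 6. These values describe the 28 points, which share libraries and a common depth per cluster.

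**Figure D1:**
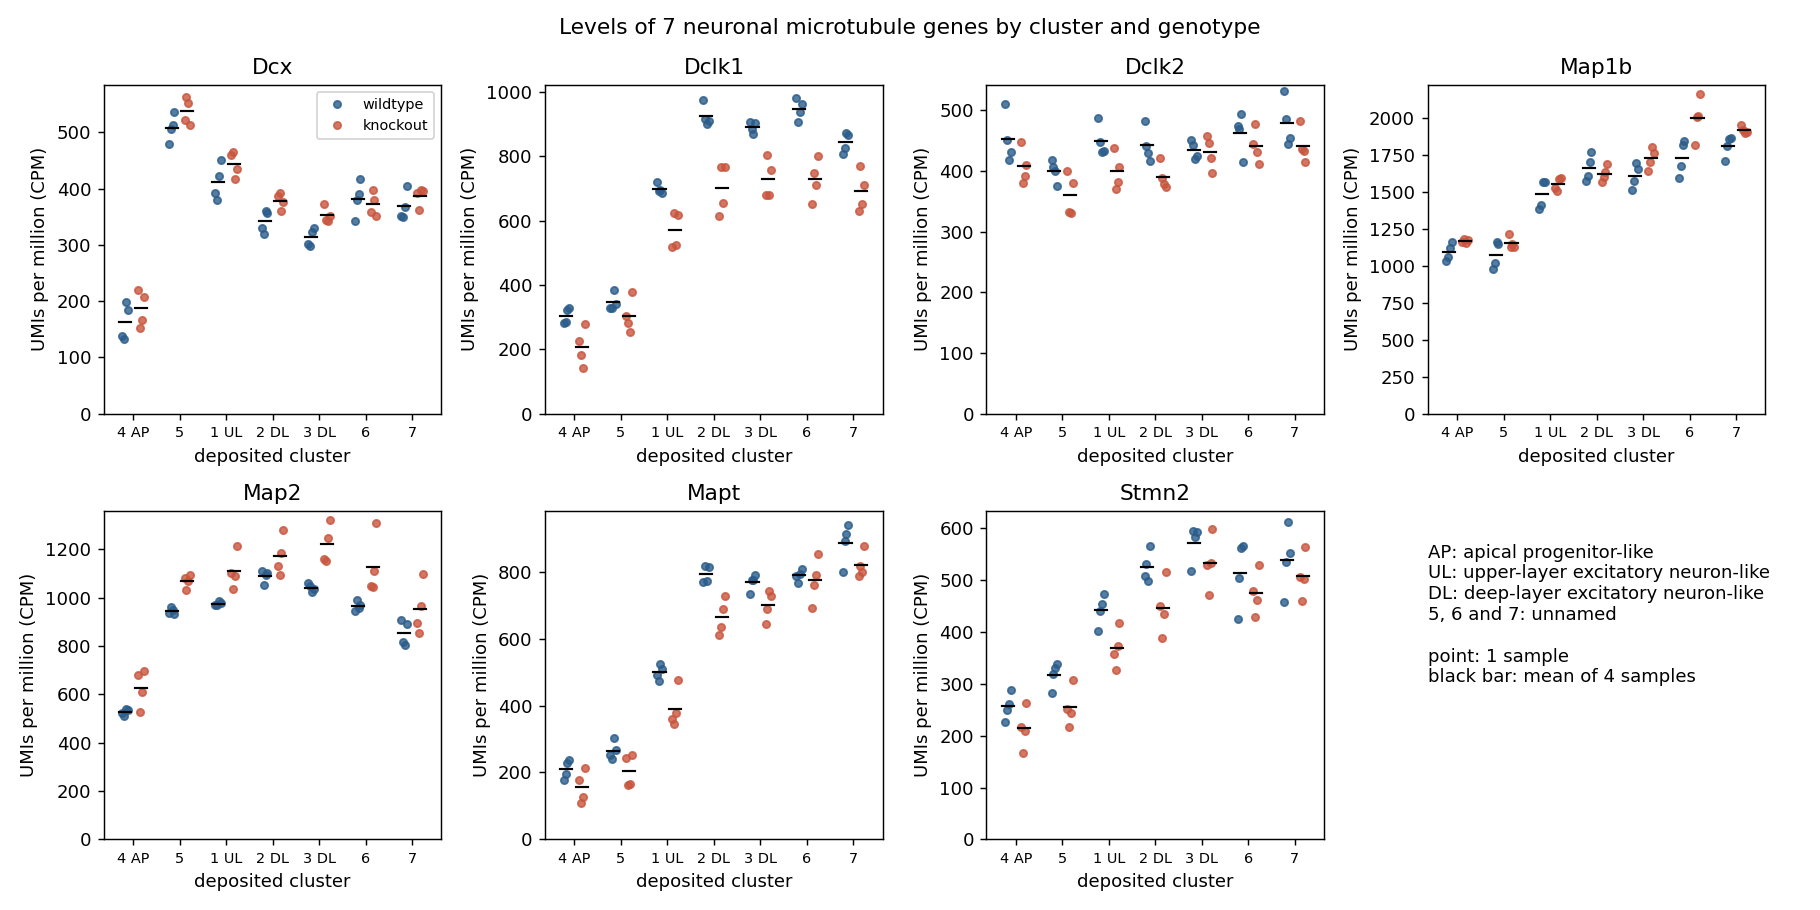
CPM (vertical axis from 0) of each gene in each deposited cluster, with clusters 4 and 5 first on the horizontal axis, with 1 point per sample and a black bar at the mean of 4 samples. Wildtype Dcx peaks in cluster 5 at a mean of 508 CPM, Dclk1, Mapt, Map1b and Stmn2 are low in clusters 4 and 5, Dclk2 is nearly level, and knockout Dclk1 lies below wildtype without overlap in every cluster except cluster 5.

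Among 8944 genes with at least 10 CPM over these 28 values, the genes most like each member were named by r. The closest to Dcx were Rnf165 (r = 0.955) and Mgat5b (0.954), and the closest to Dclk1 were Shank1 (0.994) and Reep1 (0.992). Shank1 also came first for Mapt (0.985), followed by Adam19 (0.983). Map1b was closest to Lonrf2 (0.962) and Atp2b1 (0.960), Map2 to Dlgap4 (0.949) and Rab3c (0.948), and Stmn2 to Cacna1d and Celf5 (0.956 each). Dclk2 had the weakest neighbours, Fndc4 (0.823) and Zfp692 (0.756).

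Nuclei within a cluster were not uniform. In wildtype cluster 4, nuclei with a deposited hybrid doublet score of 0.1 or more held 364 ± 17.6 CPM of Dclk1 and those under 0.1 held 213 ± 22.6 CPM, without overlap between the samples. Dcx was at 195 ± 30.3 and 116 ± 29.2 CPM, Map2 at 606 ± 33.9 and 405 ± 36.5 CPM and Mapt at 234 ± 27.0 and 172 ± 25.4 CPM in the same nuclei. The samples overlapped for Mapt, but not for Dcx and Map2. Map1b (1069 ± 43.1 against 1132 ± 83.5 CPM) and Stmn2 (246 ± 23.7 against 274 ± 33.5 CPM) were not higher in the nuclei with the higher score. By the deposited cell cycle angle, wildtype cluster 4 nuclei in the G2/M range held 451 ± 16.9 CPM of Map2, 168 ± 18.5 of Mapt and 126 ± 27.3 of Dcx, and those in the S range 573 ± 17.8, 216 ± 33.3 and 186 ± 35.7 CPM. Mapt and Dcx overlapped between these ranges, and Map2 did not. In cluster 5, Map2 was at 1004 ± 17.1 CPM in the G2/M range and 930.0 ± 29.5 CPM in the S range, the opposite order, while Mapt (261 ± 63.0 and 313 ± 21.9 CPM) and Dcx (492 ± 57.5 and 490.1 ± 21.3 CPM) overlapped between the ranges.

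Over all nuclei, Dclk1 was lower in knockout. The wildtype samples held 708, 709, 761 and 729 CPM and the knockout samples 471, 559.9, 511 and 628 CPM, so that every knockout sample lay below every wildtype sample. The log2 fold change was -0.41 ± 0.09 (SE, adjusted p = 0.0359 by edgeR's quasi-likelihood test with Benjamini-Hochberg adjustment, n = 4 per group). Dclk1 was 1 of the 7 genes and the only one called, beside 5.26% of all 13927 genes tested, 3.58% lower and 1.67% higher in knockout. The call was kept without knockout replicate 4 (adjusted p = 0.00671) and lost when any other sample was left out (up to 0.125), and with Xist, as a measure of sex, as a covariate (0.0567). In sums over all nuclei, fewer cells of a type and less RNA per cell cannot be told apart, and the share of nuclei in the low-Dclk1 cluster 4 varied from 9.69% to 25.5% between samples. The share in cluster 6, the cluster with the highest mean Dclk1 level, was 9.37% to 12.7% in wildtype and 4.31% to 8.11% in knockout samples, without overlap. The summed upper-layer markers of all nuclei ran from 1575 to 2108 CPM in wildtype and, overlapping, from 1271 to 1722 CPM in knockout. Endothelial and pericyte (15.9 to 16.7 and 12.8 to 13.9 CPM), microglial (7.45 to 9.53 and 5.87 to 6.19 CPM) and oligodendrocyte precursor markers (5.06 to 7.58 and 1.93 to 2.57 CPM) did not overlap, and the part of these shares and markers in the Dclk1 value was not tested.

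Mapt was at 554, 596, 654 and 624 CPM in wildtype and 440.3, 431, 504 and 584 CPM in knockout over all nuclei. The groups overlapped through knockout replicate 4 and wildtype replicate 1, and the log2 fold change of -0.30 ± 0.11 did not pass (adjusted p = 0.176), but passed with the replicate number as a block (0.0313, edgeR) and without knockout replicate 4 (0.0324). Map2 was at 915, 921, 939.8 and 939 CPM in wildtype and 971, 946, 1045 and 1156 CPM in knockout, without overlap, and its log2 fold change of 0.16 ± 0.08 did not pass (adjusted p = 0.284, edgeR). Not overlapping was the case for 2 of the 7 genes and for 11.3% of all genes tested. Stmn2 had a log2 difference of -0.24 ± 0.12 (adjusted p = 0.307), Dclk2 of -0.12 ± 0.05 (0.227), Dcx of 0.10 ± 0.07 (0.509) and Map1b of 0.05 ± 0.08 (0.806). An unadjusted p under 0.05 was found for 3 of the 7, Dclk1, Mapt and Dclk2. The share of all genes with such a p is not given, here or for the counts of unadjusted p below. The median log2 difference of the 7 genes was -0.12, against 0.00 (0.000995) over all genes tested.

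Within clusters, 4 of the 49 combinations of gene and cluster passed the test, beside 3.69% of all combinations tested. An unadjusted p under 0.05 was found in 23 of the 49, with no share over all combinations to read it against. Groups did not overlap in 13 of the 49 and in 8.83% of all combinations. The deep-layer-like cluster 2 carried the clearest result. Dclk1 fell there from 975, 916, 901 and 909 CPM in wildtype to 614, 767, 654 and 768 CPM in knockout. Even the highest knockout sample lay below the lowest wildtype sample. The log2 fold change was -0.40 ± 0.08, and the call (adjusted p = 0.00711, edgeR) held in all 13 alternatives, the largest adjusted p being 0.0338.

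Mapt also fell in cluster 2, from 769.5, 816, 773 and 814 CPM to 611, 635, 689 and 728 CPM, again without overlap (log2 fold change -0.25 ± 0.07, adjusted p = 0.0373, edgeR). Calls were made for 2 of the 7 genes in this cluster, where 9.11% of all genes were called and 5.19% were called lower. The Mapt call was kept without knockout replicate 4 (0.0196), and lost without any other sample (up to 0.112) and without the filter on low counts (0.0517). Stmn2 was at 509, 531, 498 and 566 CPM in wildtype and 450.4, 389, 434 and 515 CPM in knockout (log2 difference -0.23 ± 0.08). Its adjusted p was 0.0997 without and 0.0398 with the replicate block (edgeR), 0.0262 with Xist as a covariate and 0.0185 without knockout replicate 4. Over the same nuclei the summed upper-layer markers ran from 889.8 to 1686 CPM in wildtype and from 268 to 562 CPM in knockout, and the summed deep-layer markers from 8160 to 9844 CPM and from 11238 to 13278 CPM. Oligodendrocyte precursor markers summed to 3.20 to 7.04 and 1.31 to 3.10 CPM. Their part in the Dclk1 and Mapt results was not tested.

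The other deep-layer-like cluster, cluster 3, had 1 gene lower and 1 higher, beside 3.36% of all genes called there, 1.88% lower and 1.48% higher. Dclk1 fell from 907, 886, 871 and 902 CPM to 679, 803, 679.7 and 757 CPM (log2 fold change -0.26 ± 0.07, adjusted p = 0.0445, edgeR). Map2 rose from 1059, 1049, 1021 and 1037 CPM to 1162, 1152, 1248 and 1319 CPM (0.26 ± 0.06, adjusted p = 0.0235). Both pairs of groups were separate. The Dclk1 call was kept without knockout replicate 2 (0.0143) and lost without any other sample (up to 0.158), as it was when Xist entered the fit (0.0601). The Map2 call was kept without knockout replicate 1 or 2 (0.0218 and 0.0323) and lost without any other (up to 0.0907). The summed deep-layer markers overlapped between genotypes in this cluster (14517 to 15548 CPM in wildtype, 13903 to 15444 CPM in knockout), as did the summed upper-layer markers (262 to 437 and 167 to 401 CPM). Other lists were separate there, with Cajal-Retzius markers at 29.95 to 38.0 CPM in wildtype and 40.6 to 51.7 CPM in knockout, microglial markers at 6.82 to 8.09 and 3.88 to 6.07 CPM and oligodendrocyte precursor markers at 3.64 to 7.25 and 0.969 to 3.23 CPM. Their part in the Dclk1 and Map2 results was not tested. Dcx was higher in all 4 knockout samples of cluster 3 (342 to 373 CPM) than in any wildtype sample (298 to 331 CPM), with a log2 difference of 0.19 ± 0.06 that did not pass (adjusted p = 0.0981).

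**Figure D2:**
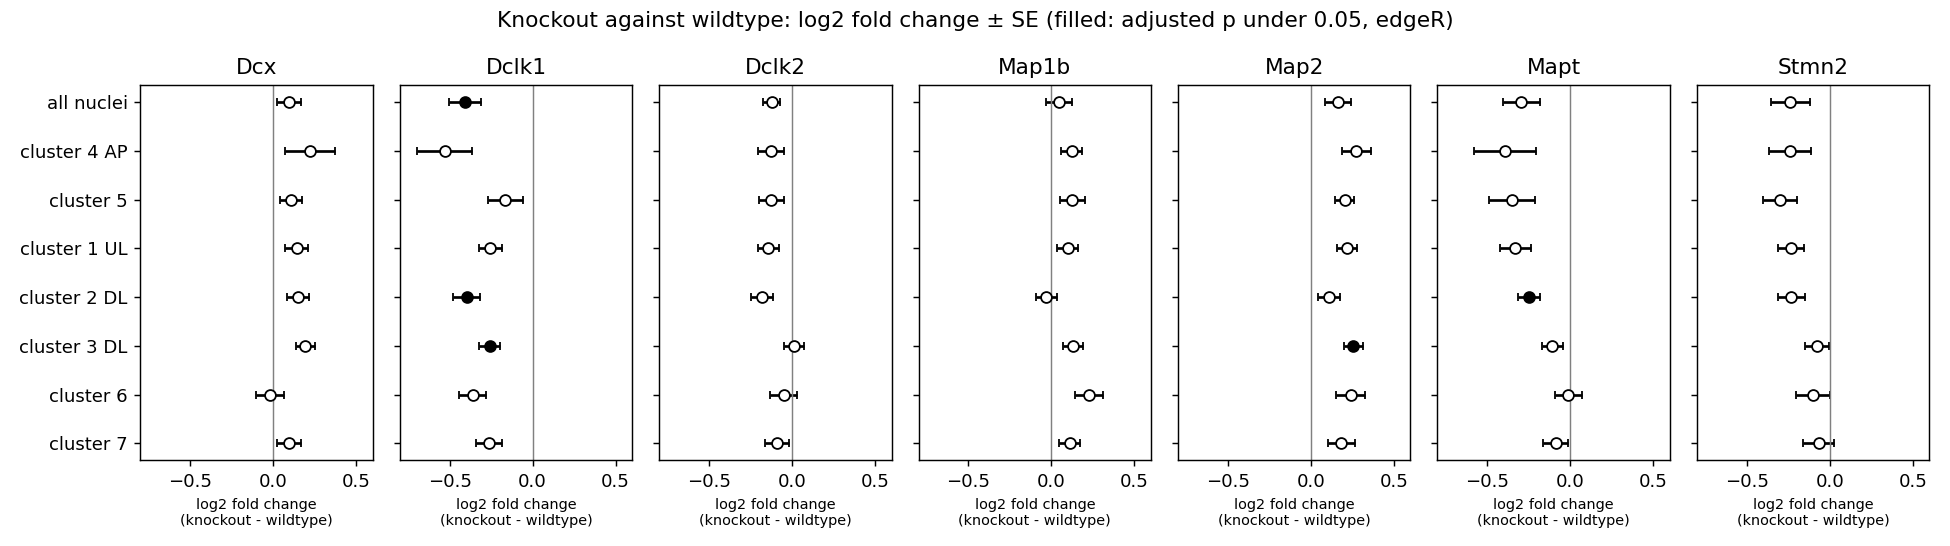
Log2 fold change of knockout against wildtype with its standard error (horizontal axis) for each gene over all nuclei and in each cluster, with filled points for an adjusted p under 0.05 in edgeR. Dclk1 points lie below 0 in all 8 fits, from -0.16 to -0.53, and the filled points are Dclk1 over all nuclei and in clusters 2 and 3, Mapt in cluster 2 and Map2 in cluster 3.

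In the upper-layer-like cluster 1 none of the 7 genes passed in the reported edgeR fit, where 4.84% of all genes did. An unadjusted p under 0.05 was found for 5 of the 7, with no share over all genes at that threshold given. Dclk1 was at 719.6, 692, 695 and 687 CPM in wildtype and 519, 624, 526 and 619 CPM in knockout, without overlap (log2 difference -0.26 ± 0.07, adjusted p = 0.0563). Mapt was at 492, 473, 524 and 510.4 CPM and at 361, 344, 377 and 476 CPM, with knockout replicate 4 inside the wildtype range (-0.33 ± 0.09, adjusted p = 0.0551). Map2 was at 968 to 985 CPM in wildtype and 1036 to 1212 CPM in knockout (0.22 ± 0.06, adjusted p = 0.054). With the replicate number as a block Dclk1 (0.0278), Mapt (0.00695), Map2 (0.0201) and Stmn2 (0.0196, against 0.123 without it) passed. DESeq2 called Dclk1 (0.0377), Mapt (0.0343) and Map2 (0.0239) here. Mapt also passed with Xist as a covariate (0.0362, edgeR). Without knockout replicate 4 Mapt (0.00108), Dclk1 (0.0315) and Stmn2 (0.0324) passed, and without knockout replicate 2 Dclk1 (0.0416). Upper-layer markers summed to 3829.8 to 4612 CPM in wildtype and 2748 to 3595 CPM in knockout cluster 1, deep-layer markers to 2500.1 to 2981 and 3742 to 5111 CPM, oligodendrocyte precursor markers to 3.84 to 4.83 and 0.773 to 2.06 CPM, and their part in these values was not tested.

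In the apical progenitor-like cluster 4, Dclk1 had its most negative log2 difference, -0.53 ± 0.16, from 283 to 329 CPM in wildtype to 226, 183, 142 and 278 CPM in knockout. The groups did not overlap, but the knockout samples spread widely and the difference did not pass (adjusted p = 0.11, edgeR, beside 4.29% of all genes called). It passed with DESeq2 (0.0495), with Xist as a covariate (0.00832) and without knockout replicate 4 (0.0162). In nuclei with a doublet score under 0.1, Dclk1 was at 213 ± 22.6 CPM in wildtype and 121 ± 20.9 CPM in knockout, and the samples did not overlap. The summed apical progenitor markers of the whole cluster ran from 3731 to 4282 CPM in wildtype and from 2571 to 2759 CPM in knockout. Singly, Ptprz1 (1529 to 1686 CPM in wildtype and 871 to 993 CPM in knockout) and Tnc (140 to 171 and 52.5 to 88.9 CPM) were also lower without overlap. Pax6 (58.6 to 67.9 and 55.5 to 75.9 CPM) and Notch1 (57.8 to 71.2 and 53.0 to 70.6 CPM) overlapped. The other markers of this list are not given singly. Endothelial and pericyte markers summed to 34.2 to 37.2 and 14.2 to 20.1 CPM, oligodendrocyte precursor markers to 12.7 to 13.9 and 1.98 to 4.26 CPM and microglial markers to 9.43 to 10.95 and 4.91 to 6.14 CPM, each without overlap. The part of these lists in the Dclk1 value was not tested. Mapt (-0.39 ± 0.19, adjusted p = 0.335), Map2 (0.27 ± 0.09, 0.122) and Dcx (0.22 ± 0.15, 0.539) did not pass in this cluster in the reported fit. Mapt passed with Xist as a covariate (0.0248) and Map2 without knockout replicate 2 (0.0256).

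The unnamed cluster 5, where Dcx was highest, had 0 of the 7 genes called in edgeR, beside 1.77% of all genes in the same fit. In that fit 3 of the 7 had an unadjusted p under 0.05, with no share over all genes at that threshold given. DESeq2 called 0 of the 7. Dcx was at 479 to 535 CPM in wildtype and 513 to 563 CPM in knockout (log2 difference 0.11 ± 0.07, adjusted p = 0.665). Cluster 5 was also the only cluster in which the Dclk1 groups overlapped, at 329 to 386 and 254 to 379 CPM (-0.16 ± 0.11, adjusted p = 0.701). Map2 was at 934 to 962 CPM in wildtype and 1033 to 1094 CPM in knockout without overlap (0.20 ± 0.06, adjusted p = 0.124). Mapt had a log2 difference of -0.35 ± 0.14 (adjusted p = 0.367) and Stmn2 of -0.30 ± 0.10 (0.246, but 0.0454 without knockout replicate 4). Inhibitory or striatal markers summed to 3338 to 4090 CPM in wildtype and 2753 to 3189 CPM in knockout cluster 5, deep-layer markers to 2483 to 2702 and 3056 to 3972 CPM, Cajal-Retzius markers to 57.3 to 94.1 and 114 to 135 CPM, and their part in these values was not tested.

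In clusters 6 and 7, also unnamed, where 0.779% and 1.03% of all genes were called, none of the 7 genes passed in the reported edgeR fit. An unadjusted p under 0.05 was found for 3 and 2 of them, with no share over all genes at that threshold given. Dclk1 was at 980.2, 906, 939 and 963 CPM in wildtype cluster 6 and 651, 748, 711 and 802 CPM in knockout (log2 difference -0.36 ± 0.08, adjusted p = 0.0693, 0.0197 with the replicate block and 0.0188 without knockout replicate 4). In cluster 7 it was at 809 to 872 and 631 to 769.6 CPM (-0.26 ± 0.08, adjusted p = 0.181, 0.0424 with the block). DESeq2 called Dclk1 in cluster 6 (0.00691) and none of the 7 in cluster 7. Mapt, lower in cluster 2, differed little in cluster 6 (-0.01 ± 0.08) and cluster 7 (-0.09 ± 0.07). Map1b lay at 1590 to 1844 CPM in wildtype and 1816 to 2161 CPM in knockout cluster 6, with overlap (0.23 ± 0.08, adjusted p = 0.355). The summed deep-layer markers were higher in every knockout sample of both clusters, at 2302 to 2419 against 2710 to 3087 CPM in cluster 6 and 2882 to 3167 against 3234 to 3961 CPM in cluster 7, and their part was not tested.

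Whether the genotype difference itself varied between clusters was tested with all genotype-by-cluster terms together. None of the 7 genes passed in edgeR, where 9.12% of 12933 genes did. An unadjusted p under 0.05, for which no such share is given, was found for 2. These were Stmn2 (adjusted p = 0.143) and Map1b (adjusted p = 0.181), and DESeq2 called 1, Map1b (adjusted p = 1.27e-04). Dclk1 had an adjusted p of 0.362, Mapt of 0.284, Map2 of 0.678, Dcx of 0.623 and Dclk2 of 0.63. The calls of Dclk1 in clusters 2 and 3 and not elsewhere, and of Mapt in cluster 2, are thus not shown to be differences between clusters, and a p that misses the threshold does not show that the clusters respond alike.

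**Figure D3:**
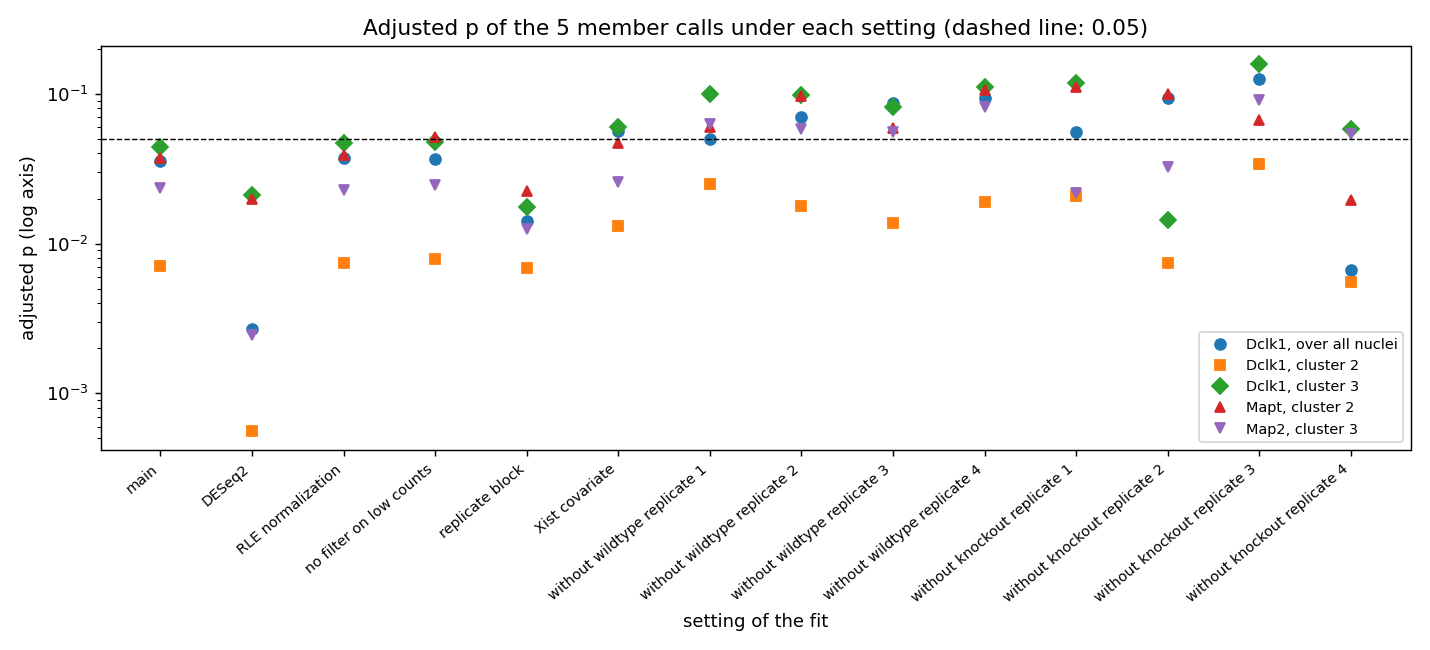
Adjusted p (vertical log axis, dashed line at 0.05) of the 5 member calls in the reported fit and in 13 other settings (horizontal axis), 1 symbol per call. Dclk1 in cluster 2 stays under the line in every setting with a highest value of 0.0338, while the other 4 calls cross it when single samples are left out.

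**Figure D4:**
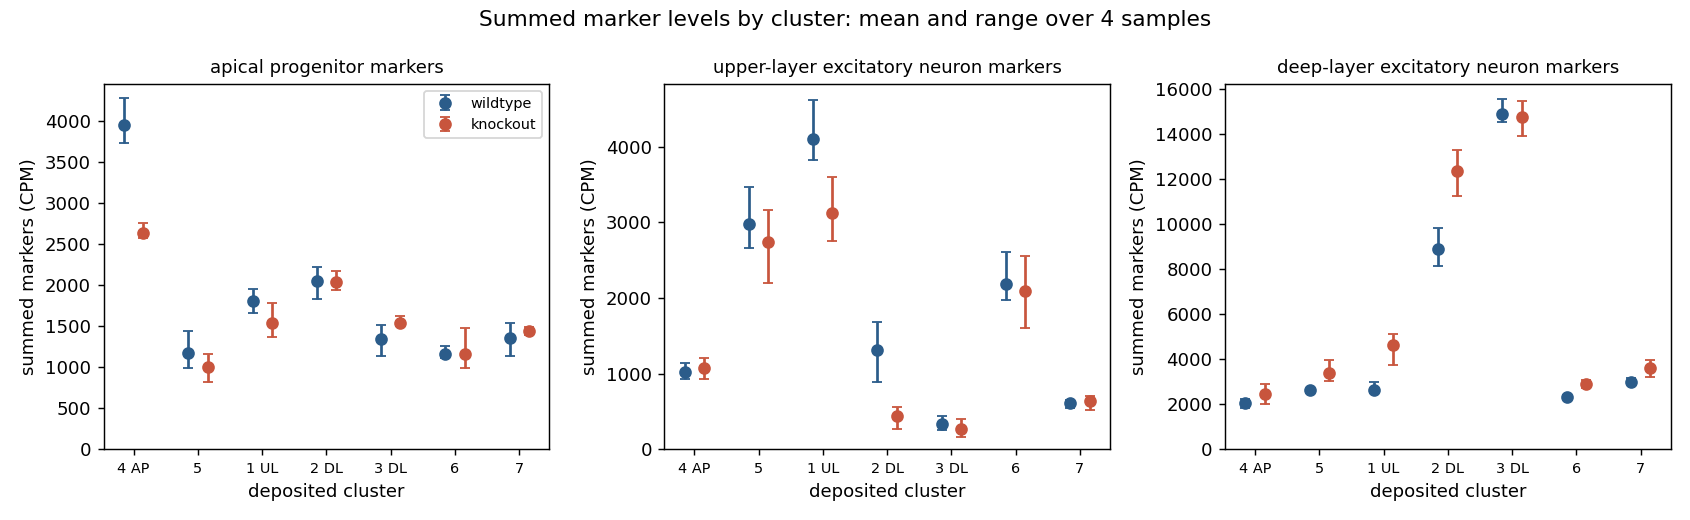
Summed CPM of the markers of apical progenitors, upper-layer and deep-layer excitatory neurons (vertical axes from 0) in each deposited cluster, with points at the mean and bars over the range of 4 samples per genotype. The sums of cluster 4 apical progenitor markers (3731 to 4282 CPM in wildtype, 2571 to 2759 CPM in knockout) and cluster 2 upper-layer markers (889.8 to 1686 and 268 to 562 CPM) are lower in knockout without overlap. Pax6 and Notch1, each among the apical progenitor markers, overlap between genotypes in cluster 4.

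A wider list of 100 other microtubule genes, in 10 groups, gives the setting of these values, and 92 of them were found. Over all nuclei 1 rose and 4 fell in knockout of the 92, beside 1.67% of all genes higher and 3.58% lower, and within clusters 28 of 585 combinations of gene and cluster were called, 9 higher and 19 lower, beside 3.69% of all. The median log2 difference of the 92 genes over all nuclei was -0.02, against 0.00 (0.000995) for all genes. By group, 1 of 4 other doublecortin-domain genes (Dclk3), 1 of 3 other stathmins (Stmn4), 1 of 12 other microtubule-associated proteins (Map9), 1 of 7 severing enzymes (Fign) and 1 of 10 tubulins (Tuba1c) passed over all nuclei. No gene passed in edgeR among 13 kinesins, 10 dynein genes, 9 kinases of microtubule proteins, 12 plus-end and minus-end proteins and 12 tubulin-modifying enzymes. Of these 56 genes, 5 had an unadjusted p under 0.05, with no share over all genes given, and DESeq2 called 2, Dync1i1 and Agtpbp1.

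Stmn4, a stathmin related to Stmn2, fell over all nuclei from 128 ± 14.8 to 84.3 ± 12.6 CPM (log2 fold change -0.59 ± 0.12, adjusted p = 0.0242) and in clusters 1 (-0.47 ± 0.09), 2 (-0.72 ± 0.11) and 3 (-0.50 ± 0.11). Fign, the severing enzyme fidgetin, fell over all nuclei from 34.3 ± 3.31 to 15.46 ± 4.93 CPM (-1.14 ± 0.17, adjusted p = 0.00672), in cluster 4 (-1.36 ± 0.22) and in cluster 6 from 157 ± 11.8 to 95.3 ± 7.73 CPM (-0.71 ± 0.09). Dclk3, another doublecortin-like kinase gene, was scarce, at 1.25 ± 0.39 CPM in wildtype and 0.488 ± 0.20 CPM in knockout (-1.40 ± 0.33, adjusted p = 0.0371). Tuba1c, an alpha-tubulin, rose from 5.66 ± 1.01 to 14.96 ± 2.18 CPM (1.42 ± 0.13, adjusted p = 3.21e-04, edgeR). However, 10 other annotated genes share with it a stretch of at least 100 bases at 95% identity or more, 2 of them among the counted genes. The counting could have split reads among these genes, so the Tuba1c value is uncertain. Map9, which encodes a protein of spindle and axonal microtubules, fell from 32.4 ± 3.14 to 22.7 ± 1.69 CPM (-0.50 ± 0.10, adjusted p = 0.0176, edgeR). With samples left out one at a time, Fign and Tuba1c were called in all 8 fits over all nuclei. Stmn4 was called only without wildtype replicate 1 or knockout replicate 4 (up to 0.0901 otherwise) and Dclk3 only without wildtype replicate 3 (up to 0.115). Map9 was lost without wildtype replicate 4 or knockout replicate 2 or 3 (up to 0.0682).

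Motor genes passed the test within clusters. Dync1i1, the intermediate chain that links cytoplasmic dynein to its cargo adaptor complex, fell in cluster 2 from 1807 ± 62.6 to 1131 ± 205 CPM (-0.67 ± 0.10, adjusted p = 9.86e-04, edgeR), in cluster 3 from 1712 ± 42.2 to 1322 ± 84.3 CPM (-0.35 ± 0.06) and in cluster 1 from 255 ± 29.7 to 150.0 ± 48.2 CPM (-0.75 ± 0.17). Kif26b, an atypical kinesin, fell in cluster 2 from 125 ± 59.0 to 11.6 ± 6.47 CPM (-3.42 ± 0.38, adjusted p = 1.04e-04) and in cluster 7 from 142 ± 3.53 to 96.2 ± 2.79 CPM (-0.53 ± 0.08). Kif21b, a kinesin that also affects microtubule growth, rose in clusters 2 (86.0 ± 6.89 to 107 ± 2.24 CPM) and 3 (93.6 ± 7.61 to 115 ± 4.45 CPM). Agbl4, which removes glutamates from tubulin tails, rose in cluster 1 from 27.8 ± 3.22 to 39.2 ± 6.27 CPM (0.50 ± 0.12), and Bend5 overlaps it on the same strand in the annotation. In the apical progenitor-like cluster 4, Rp1, a doublecortin-domain gene best known from photoreceptors, fell from 5.39 ± 1.94 to 1.86 ± 1.01 CPM (-1.54 ± 0.38) and Map7, which encodes a cofactor of kinesin-1, from 6.34 ± 2.02 to 2.82 ± 0.80 CPM (-1.11 ± 0.28), at a mean of 14.6 and 19.5 UMIs per sample. Each was called only without wildtype replicate 3 or knockout replicate 1 when samples were left out in turn (adjusted p up to 0.14 and 0.179, edgeR). Kif21b in cluster 3, Agbl4 and Dync1i1 in cluster 1 were each kept in 5 of 8 such fits (up to 0.0909) and Stmn4 in cluster 3 in 3 of 8 (up to 0.087). Kif26b differed between clusters by the genotype-by-cluster test (adjusted p = 2.2e-10), as did Kif26a, Katnal2, Map4, Tubb2a and Agbl4, 6 of the 90 other genes tested, beside 9.12% of all genes.

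No near-identical copy of the 7 genes was found among annotated transcripts. Genes that overlap Dclk1, Dclk2, Map1b, Map2 or Mapt in the annotation were not among the 14166 counted genes. Within 5 Mb on each side, 5 of 42 other tested genes near Dclk1 were called over all nuclei (11.9%). Near Dclk2 17 of 110 were called, against 3.33% to 6.67% near the other 5 genes and 5.26% of all 13927 genes tested. Whether called genes gather near Dclk1 or Dclk2 was not tested.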

How the data were processed

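Single-nucleus libraries were made with the 10x Genomics 3′ kit, per the labels' protocols, and reads were quantified with kallisto and bustools, with mm10 as the named build, per the submitters' processing notes. Versions, filters on nuclei and genes, and the clustering method are not given in the sources used here. The values are raw UMI counts per gene and nucleus as the authors deposited them. The authors deposited a hybrid doublet score for each nucleus; it has no unit, no score exceeds 0.5, and no doublet caller was run. The cluster numbers, cell cycle angles and gene positions are other values used as the authors deposited them. The gene positions differ from GRCm38 and were never mixed with the GRCm38 windows. The targeted gene was not analysed here and so gives no check of the labels.

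Sums of counts per sample, for all nuclei together and for each deposited cluster (50 nuclei or more in every sample), are given as CPM, UMIs scaled to a total of 1000000 with no further factor. They compare a gene between samples and clusters, not 1 gene with another. Knockout was compared with wildtype by edgeR 4.0.16 (R 4.3.3): TMM, filterByExpr, glmQLFit and glmQLFTest, genotype only, Benjamini-Hochberg over all genes tested in a fit, threshold 0.05. The genotype-by-cluster terms were tested together with sample as a block. The scripts were tested on simulated counts. Alternatives were DESeq2 1.42.0, RLE factors, no filter, a replicate block, Xist as a covariate and leaving out each sample. Same-numbered wildtype and knockout samples deviated together from their group means (r = 0.398, 0.185, 0.192 and 0.179 across genes, each above 0.1). Other pairs ran from -0.356 to 0.287, and some of them also lay above 0.1 (0.287, 0.167 and 0.113). Whether the numbers in the labels pair the samples is therefore not settled. The reported fits did not use these numbers, and the replicate block was an alternative only. Near-identical copies, here stretches of at least 100 bases aligned to another gene at 95% identity or more, were searched with blastn 2.17.0 in GENCODE M21.

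The members and the gene and marker lists were chosen with earlier results of these data known. A marker gene is not reported here and was left out of the upper-layer list and its sums. Named genes were all members, then in each fit up to 3 other listed genes per direction that were called with non-overlapping groups and a mean of 10 UMIs or more (Map9 over all nuclei and Agtpbp1 are named to complete a count, after their values were seen), and the 2 genes most like each member by Pearson r.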

Additional observations from a re-analysis of the deposited data

Results flagged for a closer look

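Of 112 groups of 4 samples (7 genes, all nuclei and 7 clusters, both genotypes), 3 held a sample whose distance from the nearest other took most of the group's range by Dixon's criterion. Chance gives about 1 in 20. Dcx in cluster 7 was at 362 CPM in knockout replicate 2 and at 392 to 398 CPM in the other 3 knockout samples. Dclk2 over all nuclei was at 441 CPM in knockout replicate 1 and at 392 to 397 CPM in the others. Stmn2 in cluster 3 was at 517 CPM in wildtype replicate 1 and at 584 to 594 CPM in the others.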

How the results depend on the processing

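Over all nuclei 1 member was called, and 1 with DESeq2, with RLE factors and without the filter, 2 with the replicate block, 0 with Xist as a covariate and 0 to 2 when 1 sample was left out. Within clusters 4 calls became 9 with DESeq2, 11 with the replicate block, 7 with Xist, 4 with RLE factors, 3 without the filter (Mapt in cluster 2 was lost) and 1 to 9 without 1 sample. For genotype by cluster, 0 calls became 1 with DESeq2 and 0 to 1 without 1 sample (Stmn2 without wildtype replicate 3, Mapt without knockout replicate 1 or 4), and stayed 0 with RLE factors, without the filter and with the replicate block. Of 728 log2 differences of members under alternatives, 661 kept their direction and side of the threshold, 27 newly passed, 30 no longer passed and 10 changed sign. The 10 came from leaving out 1 sample, and none was called in either fit: Dcx in cluster 6 (-0.0716 to 0.0208), Dclk2 in cluster 3 (-0.0112 to 0.0560), Map1b over all nuclei (-0.00571 to 0.0986), Mapt in cluster 6 (-0.0616 to 0.0418) and Stmn2 in cluster 7 (-0.142 to 0.0146). With fewer samples the test has fewer degrees of freedom. Causes of the other changes were not tested. The share of all genes called under each alternative setting is not given here. Whether a change in the number of calls is particular to the 7 genes was not tested. Each member had at least 574 UMIs per sample on average in every cluster.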
